A study of Homo sapiens with 2 samples.

Results

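Messages of 76 genes of the protein-folding machinery were compared between C4-2B cells given vehicle and C4-2B cells given the compound MA4-022-1. The members are the heat shock proteins of the HSP70, HSP90, HSP110, HSP60 and small families, the J-proteins (DNAJA, DNAJB and DNAJC genes), the 8 subunits of the TRiC chaperonin, the heat shock factors HSF1 and HSF2, and the co-chaperones AHSA1, STIP1 and BAG3. They were chosen by symbol, with earlier results of these data known, out of 49672 gene names in the tables. All rows that carry a symbol were summed. C4-2B is an androgen-independent line of bone-metastatic, castration-resistant prostate cancer, and MA4-022-1 is labelled as a combined inhibitor of BET bromodomain proteins and of kinases. The vehicle group received DMSO and the treated group received 2.5 µM MA4-022-1, with the exposure time not given in the sources used here. Each group was 1 library of 1 cell line, so the spread between cultures is unknown and no test was made.

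Chaperones hold unfinished or damaged proteins until they fold. HSP70 proteins bind short exposed stretches of a client and let go on exchange of ATP, J-proteins bring them clients and start ATP hydrolysis, and HSP110 proteins help to release ADP. HSP90 acts later, on clients that include the androgen receptor and many kinases, with AHSA1 and STIP1 as partners. TRiC is a barrel of 8 different subunits that folds actin and tubulin, and HSPD1 with its lid HSPE1 forms the corresponding barrel in mitochondria. The factor HSF1 drives a shared stress response from heat shock elements, which are built of inverted GAA units.

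A few promoters show how closely some members are tied. HSPA1A and HSPA1B, the stress-inducible HSP70 genes, are neighbouring copies, and the 250 bases before their starts were identical at 235 of 249 aligned positions (94.4%) in RefSeq on GRCh38.p14. Their last 150 bases are shown side by side, with the heat shock element pair GAANNTTC in capitals. The stretch of HSPA1A lies at chr6:31815393-31815542 and HSPA1B at chr6:31827588-31827737, both on the plus strand.
HSPA1A: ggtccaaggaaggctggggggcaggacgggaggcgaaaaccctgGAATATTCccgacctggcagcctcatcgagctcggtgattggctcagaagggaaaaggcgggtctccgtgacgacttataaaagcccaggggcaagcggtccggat
HSPA1B: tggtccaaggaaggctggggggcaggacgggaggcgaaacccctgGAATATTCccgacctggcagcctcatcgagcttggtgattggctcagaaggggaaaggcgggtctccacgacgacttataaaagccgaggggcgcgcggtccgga

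HSPA8, the constitutive HSP70 and the most abundant member, carried the same pair close to its start (chr11:123062137-123062216, minus strand).
HSPA8: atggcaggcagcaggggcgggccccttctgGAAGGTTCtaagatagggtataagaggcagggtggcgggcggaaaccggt

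HSPD1 and HSPE1 are read in opposite directions from 1 shared stretch, and its 104 bases between the annotated starts are shown on the plus strand (chr2:197500275-197500378), with the E-box CACGTG in capitals. The same E-box stood in the last 80 bases before the start of HSPA9, the mitochondrial HSP70 (chr5:138575402-138575481, minus strand). These promoters are shown because the 3 genes were all lower in the treated library, so the choice followed the values. Other members with the E-box were higher, as described below.
HSPD1 and HSPE1: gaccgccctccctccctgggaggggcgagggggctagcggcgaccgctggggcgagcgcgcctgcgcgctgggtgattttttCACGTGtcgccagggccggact
HSPA9: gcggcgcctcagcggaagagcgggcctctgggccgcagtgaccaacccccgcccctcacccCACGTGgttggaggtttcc

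RefSeq promoter windows, of 250 bases before to 50 after a start, were found for 69 of the 76 members. GAANNTTC, searched on both strands, stood in a window of 18 of these members (26.1%) against 8.21% of 27305 symbols with a window. Neighbours can share a site, as HSPA1L and HSPA1A do, and the E-box of HSPD1 and HSPE1 is the same site counted for both. CACGTG stood in a window of 8 members (11.6%) against 8.77% of all symbols. These are matches of letters and are not shown to be bound.

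Values were RPKM, that is reads scaled to transcript length and to library size. The totals behind them, fitted so that low values fell on whole reads, were 27011488 reads for vehicle and 19739349 for MA4-022-1. Both are below the sequencing target that the labels give, but they are fitted totals behind the RPKM and not counts of reads sequenced. On these totals 3 reads on a transcript of 2000 nt were worth 0.0616 and 0.0842 RPKM. Intervals in parentheses are 95% Poisson intervals on reads estimated in this way, and they cover counting error only. All 10 markers chosen for a luminal prostate line were at 31.7 RPKM or more in both libraries. Of 6 markers of blood, stroma, endothelium and liver, whose sum was 1.28 against 5.29 RPKM, PECAM1 and ALB were listed at 0 in both libraries and COL1A1 stood at 1.19 against 5.03 RPKM; their part in the results was not tested. Differences are log2 ratios of RPKM + 1, treated over vehicle, which understates the change of low genes, and loci are those deposited for hg19.

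Of the 76 members, 66 reached 1 RPKM in at least 1 library. With MA4-022-1, 10 of the 66 (15.2%) were lower by 2-fold or more, against 9.57% of all 15430 expressed genes and 9.51% of 9824 expressed protein-coding symbols. None was at least 2-fold higher, where the shares were 7.74% of all genes and 4.12% of protein-coding symbols. The median log2 ratio of the 66 was -0.38 against -0.02 for all expressed genes, and 50 of them (75.8%) lay below 0 against 51.1% of all expressed genes and 55.8% of protein-coding symbols. With housekeeping genes, the scaling described next, 38 of the 66 (57.6%) lay below 0 against 37.1% of all expressed genes. The abundant members stood lowest: of 21 with a mean of 100 RPKM or more, 6 were at least 2-fold lower, 20 lay below 0 and none was higher by 2-fold. Among 940 protein-coding symbols at that level, a background chosen after the values were seen, 7.23% were at least 2-fold lower, 3.19% at least 2-fold higher and 59.5% below 0.

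**Figure D1:**
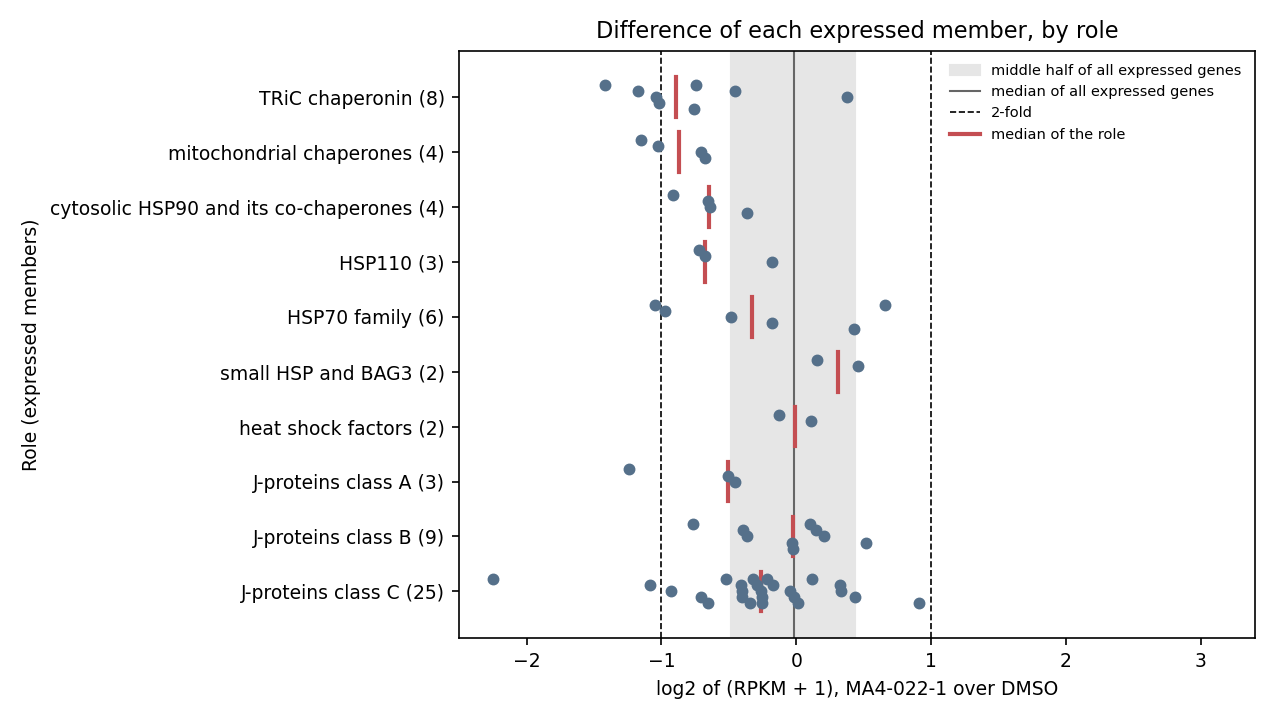
Each point is 1 expressed member, placed by its log2 ratio of RPKM + 1 (x axis, MA4-022-1 over DMSO) within its role (y axis, number of expressed members in parentheses), with red bars for role medians, dashed lines at 2-fold, and a grey line and band for the median and middle quartiles of all expressed genes. The TRiC median lies at -0.89 and that of the mitochondrial chaperones at -0.87, outside the band. Those of HSP110 (-0.68), cytosolic HSP90 with its partners (-0.65) and class A J-proteins (-0.51) also lie below its edge of -0.48. The class B J-proteins centre at -0.03.

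The scale matters for members near 0. With the medians of 10 housekeeping genes set equal, the median of all expressed genes moved to 0.24, a shift of more than 0.1, and that of the members to -0.10. Scaling multiplies every treated value by the same factor, so the distance between these medians is nearly fixed by construction. It was -0.36 as deposited and -0.34 with housekeeping genes. Only CCT6A and DNAJC22 were then still at least 2-fold lower, and DNAJC6 was at least 2-fold higher. On that scale 2 of 66 members (3.03%) were lower by 2-fold against 6.64% of all expressed genes, so the share of members fell below the background, where it had been above it as deposited. The 1 member beyond 2-fold on the upper side (1.52%) stood against 12.98% of all expressed genes. Of all expressed genes beyond 2-fold, 44.7% were higher as deposited and 66.1% with housekeeping genes. With equal sums over the expressed genes the all-gene median was -0.13 and that of the members -0.50. On that scale 13 of 66 members (19.7%) were at least 2-fold lower, against 11.4% of all expressed genes.

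**Figure D2:**
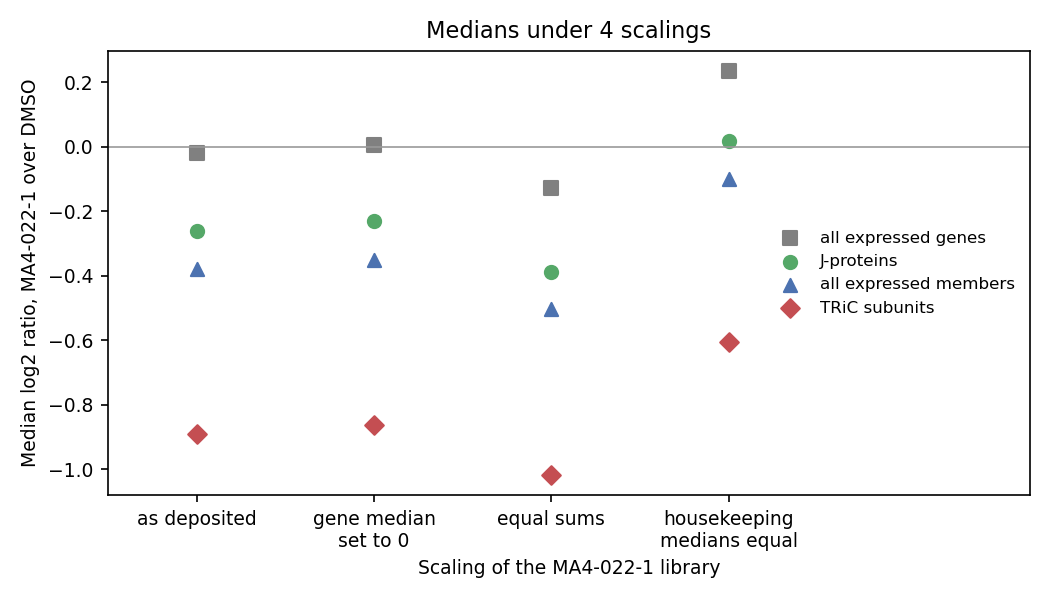
Median log2 ratios (y axis, MA4-022-1 over DMSO) of all expressed genes, J-proteins, all expressed members and TRiC subunits under 4 scalings of the treated library (x axis). The TRiC median lies below 0 under each of the 4, from -1.02 with equal sums to -0.60 with housekeeping genes, while that of the J-proteins crosses 0 to 0.018 with housekeeping genes.

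TRiC subunits were lower in 7 of 8 cases, 4 of them at least 2-fold, and the exception was TCP1, which encodes subunit alpha. Over all expressed genes 51.1% lay below 0 and 9.57% were at least 2-fold lower. CCT6A, the zeta subunit, stood at 794 RPKM (787 to 801) with vehicle and 296 RPKM (291 to 301) with MA4-022-1, a log2 ratio of -1.42 (-1.45 to -1.39; chromosome 7, 56119322 to 56131682). CCT5, the epsilon subunit, went from 369 to 163 RPKM, or 2.26-fold lower. CCT8, the theta subunit, stood at 402 against 195 RPKM and was 2.05-fold lower. CCT3, the gamma subunit, was close to the threshold at 490 against 241 RPKM, a log2 ratio of -1.02 (-1.09 to -0.96).

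The other lower subunits lay within 2-fold. CCT2, the beta subunit, stood at 513 against 303 RPKM and was 1.69-fold lower. CCT4, the delta subunit and the least abundant of the barrel, stood at 107 against 63.6 RPKM. CCT7, the eta subunit, moved least of the lower subunits, at 263 against 191 RPKM and a log2 ratio of -0.46.

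TCP1 stood apart from its partners at 646 RPKM (633 to 658) against 838 RPKM (822 to 855), a log2 ratio of 0.38 (0.34 to 0.42). All 8 proteins enter the barrel in equal number, but only messages were measured here. TCP1 made up 18.0% of the summed TRiC level with vehicle and 36.6% with MA4-022-1. The ratio of the most to the least abundant subunit was 7.40 with vehicle and 13.2 with MA4-022-1. Over all 8 subunits the summed level was 3584 against 2290 RPKM, a ratio of 0.639. Without TCP1, a split made with the values known, the other 7 subunits stood at 2939 against 1452 RPKM, a ratio of 0.494. The order of the levels changed as well, since CCT6A was the highest subunit with vehicle and TCP1 with MA4-022-1.

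TCP1 and CCT6A, at opposite ends of the range, both hold small nucleolar RNAs inside the gene in GENCODE release 29. TCP1 holds SNORA20 and SNORA29, and CCT6A holds SNORA15 and SNORA22B. HSPA8 holds SNORD14C, SNORD14D and SNORD14E, and HSPA9 holds SNORD63. The 7 members with such RNAs had log2 ratios from -1.42 to 0.38, with a median of -0.18 against -0.39 for the 59 expressed members without. Reads of the small RNAs and of their host genes were not separated here, and their part in the result was not tested.

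Near copies of TRiC genes exist as pseudogenes. In GENCODE release 29, 93.5% of the 50-base windows of CCT6A transcripts occurred in no other gene, and no TRiC gene had a lower share than the 93.0% of CCT8. The pseudogene CCT6P1 stood at 19.0 against 3.87 RPKM over its 2 rows, in the direction of CCT6A.

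**Figure D3:**
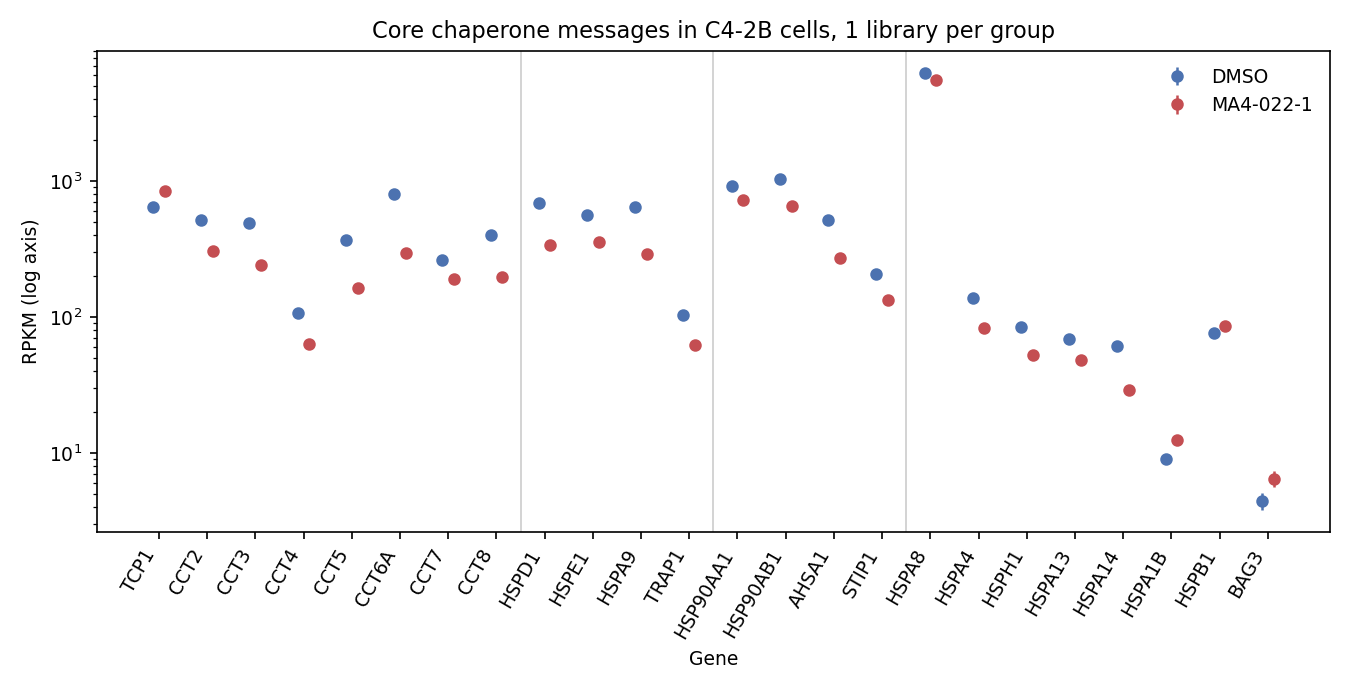
RPKM (log axis) of 24 core chaperone genes (x axis) in the DMSO (blue) and MA4-022-1 (red) libraries, with bars for the 95% counting interval, mostly smaller than the points. Grey lines separate TRiC, the mitochondrial chaperones, HSP90 with its partners, and the rest. TCP1, HSPA1B, HSPB1 and BAG3 are the genes of this plot with the red point above the blue point.

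Mitochondrial chaperones were lower in 4 of 4 cases, against 51.1% of all expressed genes below 0 and 59.5% of the protein-coding symbols at 100 RPKM or more. Their summed level was 1997 against 1041 RPKM. HSPA9, or mortalin, which pulls imported proteins into the matrix, stood at 645 RPKM (630 to 661) against 290 RPKM (278 to 303), a log2 ratio of -1.15 (-1.22 to -1.08; chromosome 5, 137890506 to 137911133). HSPD1, or HSP60, stood at 685 against 336 RPKM and was 2.04-fold lower, with an interval of its log2 ratio from -1.09 to -0.97 that includes the threshold. HSPE1, or HSP10, which is read from the same promoter stretch as HSPD1, stood at 564 against 352 RPKM, with a log2 ratio of -0.68 (-0.74 to -0.61).

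The barrel gene and the lid gene thus moved by unequal amounts, and HSPD1 over HSPE1 was 1.21 in the vehicle library and 0.953 in the treated library. Both belong to the deposited locus on chromosome 2, 198351062 to 198418423, which also holds MOB4, at 75.2 against 52.4 RPKM. HSPD1 has several pseudogenes, and 82.2% of its 50-base windows occurred in no other gene. TRAP1, the mitochondrial HSP90, stood at 103 against 62.5 RPKM and was 1.64-fold lower.

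Cytosolic HSP90 and its partners were lower in 4 of 4 cases, none of them by 2-fold, beside the same shares of 51.1% and 59.5% below 0. HSP90AB1, the constitutive form, stood at 1037 against 657 RPKM, a log2 ratio of -0.66 (-0.68 to -0.64). HSP90AA1, the form that responds more to stress, stood at 923 against 717 RPKM, a log2 ratio of -0.36 (-0.39 to -0.34). The constitutive form was therefore the higher of the pair with vehicle, at a ratio of 1.12, and the lower of the pair with MA4-022-1, at 0.916.

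Among the partners, AHSA1, which activates the ATPase of HSP90, stood at 515 against 273 RPKM and was 1.89-fold lower. With equal sums it passed the threshold, at -1.04. STIP1, or HOP, which hands clients from HSP70 to HSP90, stood at 208 against 133 RPKM over 2 rows and was 1.56-fold lower. Its main row went from 201 to 126 RPKM, and its minor row stood at 6.92 against 7.05 RPKM.

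The HSP70 list held 9 symbols, without HSPA9, described with the mitochondrial chaperones, and without HSPA5 of the endoplasmic reticulum. It was dominated by HSPA8, which stood at 6199 RPKM (6167 to 6231) with vehicle and 5483 RPKM (5447 to 5518) with MA4-022-1. HSPA8 made up 97.8% and 98.3% of the summed RPKM of these 9 symbols, and 87.0% and 91.4% with HSPA9 and HSPA5 added. Its log2 ratio of -0.18 changed sign to 0.11 with housekeeping genes. HSPA14, which joins a J-protein at the ribosome, was the member of this list beyond 2-fold, beside HSPA9 outside it, at 60.8 against 28.9 RPKM and a log2 ratio of -1.05 (-1.15 to -0.94). HSPA13, a microsomal HSP70, stood at 68.6 against 48.7 RPKM.

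The stress-inducible genes were low in both libraries. HSPA1B stood at 9.01 RPKM (8.28 to 9.78) against 12.5 RPKM (11.5 to 13.5), a log2 ratio of 0.43. HSPA1A, its near copy, was at 0.173 against 0.118 RPKM, under the filter of 1 RPKM. In GENCODE release 29, 71.3% of the 50-base windows of HSPA1A occurred in HSPA1B, so the levels of the 2 copies are uncertain and only their sum can be read. HSPA6, an inducible gene that is usually off without stress, was at 0.256 against 0.472 RPKM.

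HSPA1L, a testis-type HSP70 beside HSPA1A, stood at 2.36 against 0.707 RPKM, a log2 ratio of -0.97 (-1.23 to -0.70), just short of 2-fold. HSPA12A, a distant relative, stood at 0.941 against 2.06 RPKM, a log2 ratio of 0.66 (0.42 to 0.90). With a pseudocount of 0.1 RPKM the former passed 2-fold lower and the latter 2-fold higher. HSPA2, another testis-type member, did not reach 1 RPKM.

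HSP110 genes lay below 0 in 3 of 3 cases as deposited, against 51.1% of all expressed genes, and in 2 of 3 with housekeeping genes, against 37.1%. HSPA4 stood at 139 against 83.6 RPKM and HSPH1 at 85.0 against 52.7 RPKM, or 1.65-fold and 1.60-fold lower. HSPA4L stood at 10.7 against 9.30 RPKM, and its log2 ratio of -0.18 changed sign to 0.08 with housekeeping genes.

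The stress factors and the small heat shock proteins lay within 2-fold. HSF1 stood at 20.3 RPKM (19.1 to 21.6) against 18.6 RPKM (17.2 to 20.0), a log2 ratio of -0.13 that turned to 0.15 with housekeeping genes. HSF2 stood at 9.69 against 10.5 RPKM, a log2 ratio of 0.11 that turned to -0.01 with equal sums. For both factors the counting intervals of the 2 libraries overlapped. HSPB1, or HSP27, stood at 76.7 against 85.6 RPKM, a log2 ratio of 0.16 that was 0.03 with equal sums. BAG3, which links HSP70 to small heat shock proteins and to autophagy, stood at 4.44 RPKM (3.84 to 5.10) against 6.46 RPKM (5.62 to 7.39). HSPB8, its partner, was at 0.832 against 0.265 RPKM, under the filter.

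Expressed members with the heat shock element pair in a promoter window, 13 of them, had a median log2 ratio of -0.18, with values from -1.03 to 0.91 and 1 of them, HSPD1, at least 2-fold lower. The 47 with a window but no such pair had a median of -0.40, with values from -1.24 to 0.66 and 6 at least 2-fold lower. The 8 expressed members with the E-box had a median of -0.41, with values from -1.15 to 0.33. Among them 2, HSPA9 and again HSPD1, were at least 2-fold lower, while DNAJC16 and HSF2 lay above 0. The 52 without had a median of -0.35, with values from -1.24 to 0.91 and 5 at least 2-fold lower. Over all expressed genes 9.57% were at least 2-fold lower, so these small counts do not set the groups apart. The ranges overlapped in both splits, and neither was tested.

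Of 43 J-proteins, 37 were expressed, and 3 of these (8.11%) stood beyond the 2-fold line on the lower side, near the 9.57% of all expressed genes. None stood beyond it on the upper side, against 7.74% of all expressed genes and 4.12% of protein-coding symbols, so few would be looked for among 37. Their median log2 ratio was -0.26 as deposited and 0.018 with housekeeping genes, beside -0.33 as deposited for the HSP70 list and -0.18 for HSPA8, the partners of J-proteins. The differences between these values were not tested.

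The classes are defined by their domains, with class A closest to bacterial DnaJ. Among the 4 class A genes, DNAJA4 was below 1 RPKM and the other 3 were lower, where 51.1% of all expressed genes lay below 0. DNAJA3, or TID1, the partner of HSPA9 in the mitochondrial matrix, stood at 112 RPKM (109 to 114) against 46.6 RPKM (44.7 to 48.7), a log2 ratio of -1.24 (-1.31 to -1.17). DNAJA1 and DNAJA2, the general cytosolic partners of HSPA8, stood at 119 against 86.3 and at 149 against 105 RPKM.

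In class B, 9 of 13 members were expressed, all within 2-fold, with 5 below 0 and 4 above. The class median of -0.03 turned to 0.25 with housekeeping genes. DNAJB1, or HSP40, a target of HSF1, stood at 31.3 RPKM (28.1 to 34.9) against 30.8 RPKM (27.0 to 34.9), and the intervals overlapped. DNAJB11, an endoplasmic reticulum partner of HSPA5, was the lowest of the class at 222 against 130 RPKM, or 1.71-fold lower. DNAJB9, of the same compartment, stood at 74.9 against 56.8 RPKM. DNAJB2, which guides HSP70 clients to the proteasome, was the highest of the class at 37.5 against 54.2 RPKM, a log2 ratio of 0.52 (0.37 to 0.67).

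Class C holds proteins that share the J domain alone. DNAJC22, a membrane protein of little known function, showed the widest difference of all members, at 9.69 RPKM (9.03 to 10.4) against 1.25 RPKM (0.986 to 1.57), a log2 ratio of -2.25 (-2.45 to -2.04; chromosome 12, 49740699 to 49751309). DNAJC17, which acts with the splicing machinery, stood at 23.1 against 10.3 RPKM and was 2.12-fold lower, with an interval of its log2 ratio from -1.24 to -0.93. DNAJC2, the ribosome-bound partner of HSPA14, stood at 21.4 against 10.8 RPKM over 2 rows, a log2 ratio of -0.93 (-1.09 to -0.76). Both genes of that ribosome-bound pair thus lay near the 2-fold line.

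DNAJC6, or auxilin, which uncoats clathrin vesicles, had the highest log2 ratio of the members over summed rows (DNAJC9 is higher by its own row alone, at 1.19), at 1.10 RPKM (0.935 to 1.28) against 2.94 RPKM (2.62 to 3.29) and a ratio of 0.91 (0.74 to 1.08). DNAJC13, of endosomes, stood at 26.8 against 36.6 RPKM. By place, a grouping made after the values were seen, the 4 vesicle J-proteins had a median of 0.28. Above 0 lay 3 of them, where 51.1% of all expressed genes lay below 0. Of these 3, DNAJC27 had a log2 ratio of 0.11 (-0.07 to 0.30), an interval that includes 0. The 5 expressed mitochondrial J-proteins had a median of -0.40, the 9 of the endoplasmic reticulum -0.29 and the 7 cytosolic ones -0.03. The 5 of the nucleus and ribosome had a median of -0.26 and the 7 expressed without a place -0.34. All of these lay below 0 as deposited, against 51.1% of all expressed genes, with 1 of each at least 2-fold lower, against 9.57%. The first median is the summed value of DNAJC9, which turned to 0.03 with housekeeping genes and whose own row was higher with MA4-022-1. Of the 7 without a place, 5 were read wholly from rows joined with other genes.

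Among the abundant class C genes, DNAJC7, which binds HSP70 and HSP90, stood at 180 against 109 RPKM and was 1.64-fold lower. DNAJC10, a disulfide reductase of the endoplasmic reticulum, stood at 103 against 65.2 RPKM. DNAJC14 was read from a row joined with SARNP and a clone name, at 109 against 87.2 RPKM, so that value is not its own.

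**Figure D4:**
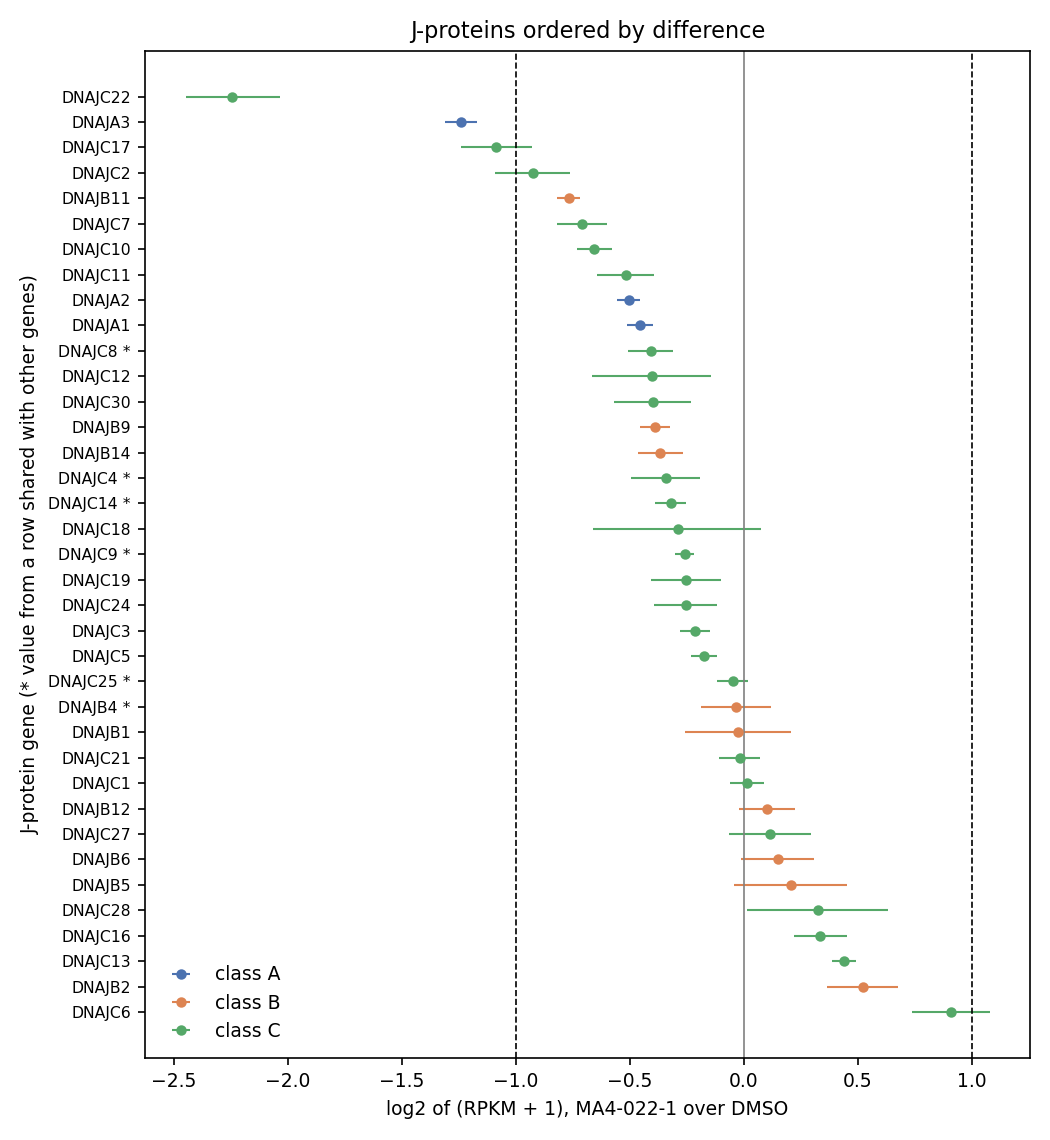
Log2 ratio of RPKM + 1 (x axis, MA4-022-1 over DMSO) of the 37 expressed J-proteins (y axis, ordered by value), coloured by class, with bars for the 95% counting interval and dashed lines at 2-fold. Stars mark the 6 genes whose value comes wholly or partly from a row shared with other genes. DNAJC22 lies alone at -2.25 and DNAJC6 at 0.91.

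Rows that joined several symbols supplied the whole value of 5 members, DNAJB4, DNAJC4, DNAJC8, DNAJC14 and DNAJC25, all within 2-fold. DNAJC9, a chaperone of histones H3 and H4, had both kinds of row. Its own row stood at 14.8 against 35.1 RPKM, a log2 ratio of 1.19, whereas the row joined with its neighbour MRPS16 stood at 145 against 98.1 RPKM, a log2 ratio of -0.56. The sum was 160 against 133 RPKM, a log2 ratio of -0.26 that turned to 0.03 with housekeeping genes. The direction of DNAJC9 is therefore not settled by these tables.

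The 10 members under 1 RPKM were HSPA1A, HSPA2, HSPA6, HSPB8, DNAJA4, DNAJB3, DNAJB7, DNAJB8, DNAJB13 and DNAJC15. DNAJB3 and DNAJB8 were listed at 0 in both libraries. Near the threshold, HSPD1 and CCT3 were the members just inside, at 2.04-fold and 2.03-fold lower, and HSPA1L and DNAJC2 those just outside, at 1.97-fold and 1.90-fold lower.

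Genes that work with these chaperones but are not members were taken as 7 lists of 85 symbols, of which 74 were expressed under their own name. Their median was -0.21, and 3 of them (4.05%) stood lower by 2-fold or more, fewer than the 9.57% of all expressed genes. None stood higher by 2-fold, against 7.74% of all expressed genes. GRPEL2, a mitochondrial exchange factor for HSPA9, stood at 38.8 against 13.5 RPKM and was 2.74-fold lower. GRPEL1, of the same list, moved little, at 48.7 against 43.0 RPKM and a log2 ratio of -0.18. TIMM44, which anchors HSPA9 at the import channel, stood at 50.2 against 22.6 RPKM, and BAG1, an exchange factor of cytosolic HSP70, at 77.8 against 33.8 RPKM.

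By list, the 12 genes of prefoldin and other TRiC helpers had a median of 0.02 with none beyond 2-fold, beside -0.89 for TRiC itself. The 20 HSP90 co-chaperones had a median of -0.34 and the 14 HSP70 partners -0.37. The 12 genes of mitochondrial proteases and import had a median of -0.34, the 8 chaperones of the endoplasmic reticulum 0.09, the 5 further small heat shock proteins and HSF regulators -0.02, and the 3 J-proteins with other names -0.21. The medians near 0 depend on the scaling, since with equal sums those of the TRiC helpers and the endoplasmic reticulum were -0.11 and -0.04. With housekeeping genes those of the small heat shock proteins and the J-proteins with other names were 0.27 and 0.08.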

How the data were processed

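Total RNA of C4-2B cells (2 libraries), depleted of ribosomal RNA, was sequenced as single 50 bp reads, per the labels' protocols. The submitters' processing notes name TopHat2 2.0.13, Cufflinks 2.2.1 and hg19, and the authors deposited 62271 rows of RPKM per library; strand settings and annotation are not given in the sources used here. Members, lists and rules were chosen with earlier results of these data known. Rows were summed per symbol, rows joining several symbols were counted for each member they name, and the 2751 rows without a symbol (29.6% and 23.3% of summed RPKM) and short RNAs were left out. Expressed means 1 RPKM or more in a library, and log2 ratios used a pseudocount of 1 RPKM with a threshold of 2-fold. No test was possible with 1 library per group. The ratio step was run on simulated Poisson reads with planted changes. These reads held no spread between cultures, so the run checks the arithmetic and cannot show the error of these libraries. Totals and a length offset were fitted on processed pseudogenes of 600 to 6000 nt to bring the most low values onto whole reads, and so by construction 189 of 191 and 144 of 146 values of up to 5 reads lay within 2% of a whole read. Reads of members were estimated from median coding-transcript lengths in GENCODE release 29, so intervals assume that length. Intervals of log2 ratios combine the Poisson limits of both libraries. PCR duplicates and spread between cultures are not in them. Named were the expressed members outside the J-proteins, and J-proteins beyond 2-fold or among the 4 most abundant of a class. List genes beyond 2-fold at 5 RPKM or more were named too. Further J-proteins and GRPEL1 were named after their values were seen. Python 3.11.15, numpy 2.4.6, pandas 2.3.3, scipy 1.17.1 and matplotlib 3.10.9 were used.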

Additional observations from a re-analysis of the deposited data

How the results depend on the processing

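No paired analysis was possible because each group held 1 library. The count of members at least 2-fold lower, 10 as reported, was 2 with housekeeping genes (3.03% of members against 6.64% of all genes, below the background) and 24 at 1.5-fold (36.4% against 20.6%), and lay between 8 and 13 under the other alternatives. The share of all genes moved as well. Members stood at 19.7% against 11.4% with equal sums. They stood at 16.7% against 13.3% with a pseudocount of 0.1 RPKM, and at 12.1% against 4.28% with 5 RPKM. The count at least 2-fold higher, 0 as reported, was 2 with a pseudocount of 0.1 RPKM (3.03% against 12.7% of all genes). It was 1 with housekeeping genes (1.52% against 12.98%) and 2 at 1.5-fold (3.03% against 18.8%). With joined rows left out it was 1, DNAJC9 (1.64% against 7.74%). With equal sums the medians were -0.50 for all expressed members, -1.02 for TRiC and -0.39 for J-proteins. With housekeeping genes they were -0.10, -0.60 and 0.018, so the J-protein median changed sign. Both scalings multiply every treated value by 1 factor (0.915 and 1.22), which moves members and all genes together. Distances to the all-gene median are thus nearly fixed under a change of scale. Relative to all expressed genes the TRiC median lay between -0.83 and -0.89 under every alternative run. Leaving out members with under 80% of 50-base windows of their own, or those that hold small nucleolar RNAs, were alternatives chosen after seeing the data, and left 10 and 8 members at least 2-fold lower. Those counts were 15.6% and 13.6% of the members kept, against 9.57% of all expressed genes. Among 42 named members, those beyond 2-fold kept their sign under every alternative in which single members were recomputed, and values near 0 that changed sign stand with the genes above. Medians were taken as similar within 0.1. Depth was not the limit for the abundant members, whose counting intervals were narrow, but the spread between cultures is unknown with 1 library per group.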
